A study of Mus musculus with 6 samples.

Results

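Osteoprotegerin, the product of Tnfrsf11b, was measured in lung endothelial cells (ECs) together with 9 genes of the tumor necrosis factor (TNF) ligand and receptor superfamilies. The 10 genes were chosen by name. They comprise the ligands Tnfsf11 and Tnfsf10 and the receptors Tnfrsf11b, Tnfrsf10b, Fas, Tnfrsf1a, Tnfrsf21, Tnfrsf1b, Tnfrsf12a and Cd40. Every probe set whose annotation gave 1 gene symbol equal to a member was taken, which gave 20 of the 45101 probe sets on the array and 10 of the 18194 genes with such probe sets. A probe set is a group of short array sequences that together report on 1 transcript or gene.

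The ECs came from the lungs of NSG mice aged 6 to 8 weeks that had received MDA-MB-231-LM2 cells intravenously. These cells descend from MDA-MB-231, a line of human breast cancer cells, and colonize the lung strongly. The labels call the lungs of both groups metastatic. In the shControl group the cancer cells expressed a control short hairpin RNA, and in the shTNC group hairpin RNA against TNC, the gene of the matrix protein tenascin C. The labels do not say which hairpin or hairpins were used, nor whether a sample pooled mice. Each group had 3 samples labelled as biological replicates with 1 array each, and the lungs were taken on day 20, which the labels give as 3 weeks. The comparison asks how the genes differed in ECs when the cancer cells were depleted of TNC. The authors report that TNC knockdown reduced colonization of the lung. By quantitative PCR of lung ECs, a different measure from these arrays, they also report that induction of their niche genes, osteoprotegerin among them, depended on TNC. The labels give no metastatic load for these samples, and its part in the differences was not tested. The hairpin acted in human cancer cells, which the sort excluded, so the mouse Tnc probe sets do not check the knockdown. NSG mice lack mature lymphocytes and natural killer cells, and the response of such cells is therefore absent from the model.

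TNF superfamily ligands are trimers on the cell surface or in solution, and they cluster their receptors. Receptors with a death domain can recruit adaptors that activate caspases, whereas the others bind TRAF proteins and signal mainly to NF-kB. Osteoprotegerin has neither a membrane anchor nor a signaling tail of that kind. It is secreted and acts as a decoy that keeps RANKL, encoded by Tnfsf11, and TRAIL, encoded by Tnfsf10, from their receptors. ECs make osteoprotegerin, and they respond to TNF by displaying leukocyte adhesion molecules.

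No probe set of the 10 genes differed between shTNC and shControl at an adjusted p under 0.05 (limma, Benjamini-Hochberg over all probe sets), and neither did any other probe set on the array (0%). The smallest adjusted p of a member was 0.231, for Tnfrsf12a, and the smallest on the array was 0.126. At an unadjusted p under 0.05 (limma), 3 of the 20 member probe sets were lower in shTNC, against 6.3% of all probe sets, and 2 were higher, against 6.66%. The 3 lower probe sets were both of Tnfrsf12a and 1 of Tnfrsf10b, and the 2 higher were of Tnfsf10. All shTNC arrays lay below all shControl arrays for 3 member probe sets, against 10.5% of all probe sets, and above them for 2, against 8.92%. The former were 1 probe set each of Tnfrsf12a, Tnfrsf10b and Tnfsf11, and the latter were those of Tnfsf10. The members were split evenly, with 10 probe sets lower and 10 higher, and their median difference was -0.0076 on the log2 scale against -0.011 over all probe sets. With so few arrays, the precision of all these values is limited.

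These counts are small and changed when single arrays were left out, as did the shares over all probe sets. Without shControl 1 the count of member probe sets lower at an unadjusted p under 0.05 (limma) was 1, against 5.96% of all probe sets. Without shControl 2 it was 4, against 5.25%. The count of higher probe sets was 0 without shTNC 2, against 4.86% of all probe sets. It was 1 without shControl 1, shControl 2, shTNC 1 or shTNC 3, against 5.03% to 6.68%. The array of shControl 2 stood apart from the others, with a score of -43.6 on the first principal component against -11.1 to 21.1 on the other arrays. That component held 36.6% of the variance, and the correlations of the array with the others reached down to 0.986.

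The arrays carried the RNA of the sorted cell type. Pecam1, the gene of the sorting marker CD31, measured between 13.92 and 14.03 on the log2 scale on all 6 arrays, and the 12 endothelial markers summed to between 17.13 and 17.20 in shControl and between 17.14 and 17.15 in shTNC. None of the 12 was near background, which was set at 7.48, the level that 95% of 44 probe sets for olfactory receptors stayed under. Marker lists of other cells were also measured. The summed level of 7 lymphocyte markers was 10.18 to 10.36 in shControl and 10.07 to 10.13 in shTNC, with Cd3d, Cd3e, Ms4a1 and Ncr1 near background. The sum of 5 mesothelial markers was 10.23 to 10.52 in shControl and 10.53 to 11.61 in shTNC, with Lrrn4 and Wt1 near background. All 5 were higher in shTNC, and their median difference of 0.76 was the largest of any marker list in either direction. Of 14 macrophage markers, 12 were lower in shTNC, and the median difference of the list was -0.12. For 4 of them, Mrc1, Cd14, Chil3 and Itgax, the unadjusted p was under 0.05 (limma), against 6.3% of all probe sets. Their summed level, in which the markers with the highest signal weigh most, was 14.17 to 14.23 in the shControl arrays and 13.88 to 14.19 in the shTNC arrays. Adgre1, a defining macrophage marker, was near background. The sums of the fibroblast, pericyte and smooth muscle, epithelial, neutrophil and platelet lists overlapped between the groups as well. Of 10 fibroblast markers, 7 were higher in shTNC and 3 lower, with a median difference of 0.22. The part of these cells in the differences described here was not tested. In RNA from a sorted population, fewer cells of a type and less RNA per cell cannot be told apart. Whether the marker RNA came from such cells or from the ECs was not tested.

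Osteoprotegerin had 2 probe sets, and neither passed the test. Probe set 1418309_at measured 11.81, 12.54 and 11.67 on the log2 scale in shControl and 11.68, 11.81 and 11.54 in shTNC. The highest value was that of shControl 2, and the other 5 arrays lay close together, so that the groups overlapped. The means were 12.01 ± 0.47 (SD, n = 3) in shControl and 11.68 ± 0.14 (SD, n = 3) in shTNC. The difference, shTNC minus shControl, was -0.33 ± 0.21 (SE; 95% confidence interval -0.81 to 0.16), with an adjusted p of 0.539 (limma). Without shControl 2 it was -0.062 ± 0.11 (SE), so most of the difference rested on that array.

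The other Tnfrsf11b probe set, 1449033_at, measured 10.03, 10.53 and 9.67 in shControl and 10.08, 10.29 and 9.89 in shTNC. Its range in shTNC lay inside its range in shControl. The difference was 0.0099 ± 0.21 (SE; adjusted p = 0.989, limma), and it was 0.24 ± 0.15 (SE) without shControl 2 and -0.19 ± 0.18 (SE) without shControl 3. Over the 6 arrays the probe sets correlated with each other at r = 0.816, and both were highest on shControl 2. Tnfrsf11b lies on chromosome 15 (GRCm38, chr15:54250619-54278484). The intervals of both probe sets include differences of either sign, so a change of osteoprotegerin mRNA was not resolved in these arrays, and its absence was not shown.

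The genes whose values most resembled those of Tnfrsf11b 1418309_at over the 6 arrays were Mb, A730035I17Rik, Art5, Blvrb and Smim23, with Pearson r between 0.992 and 0.995. Mb encodes myoglobin and Blvrb encodes biliverdin reductase B. All of them were highest on shControl 2, as Tnfrsf11b was. Of 25283 probe sets above background with 1 gene symbol, 926 had an r over 0.9, and all points share the same 6 libraries.

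**Figure D1:**
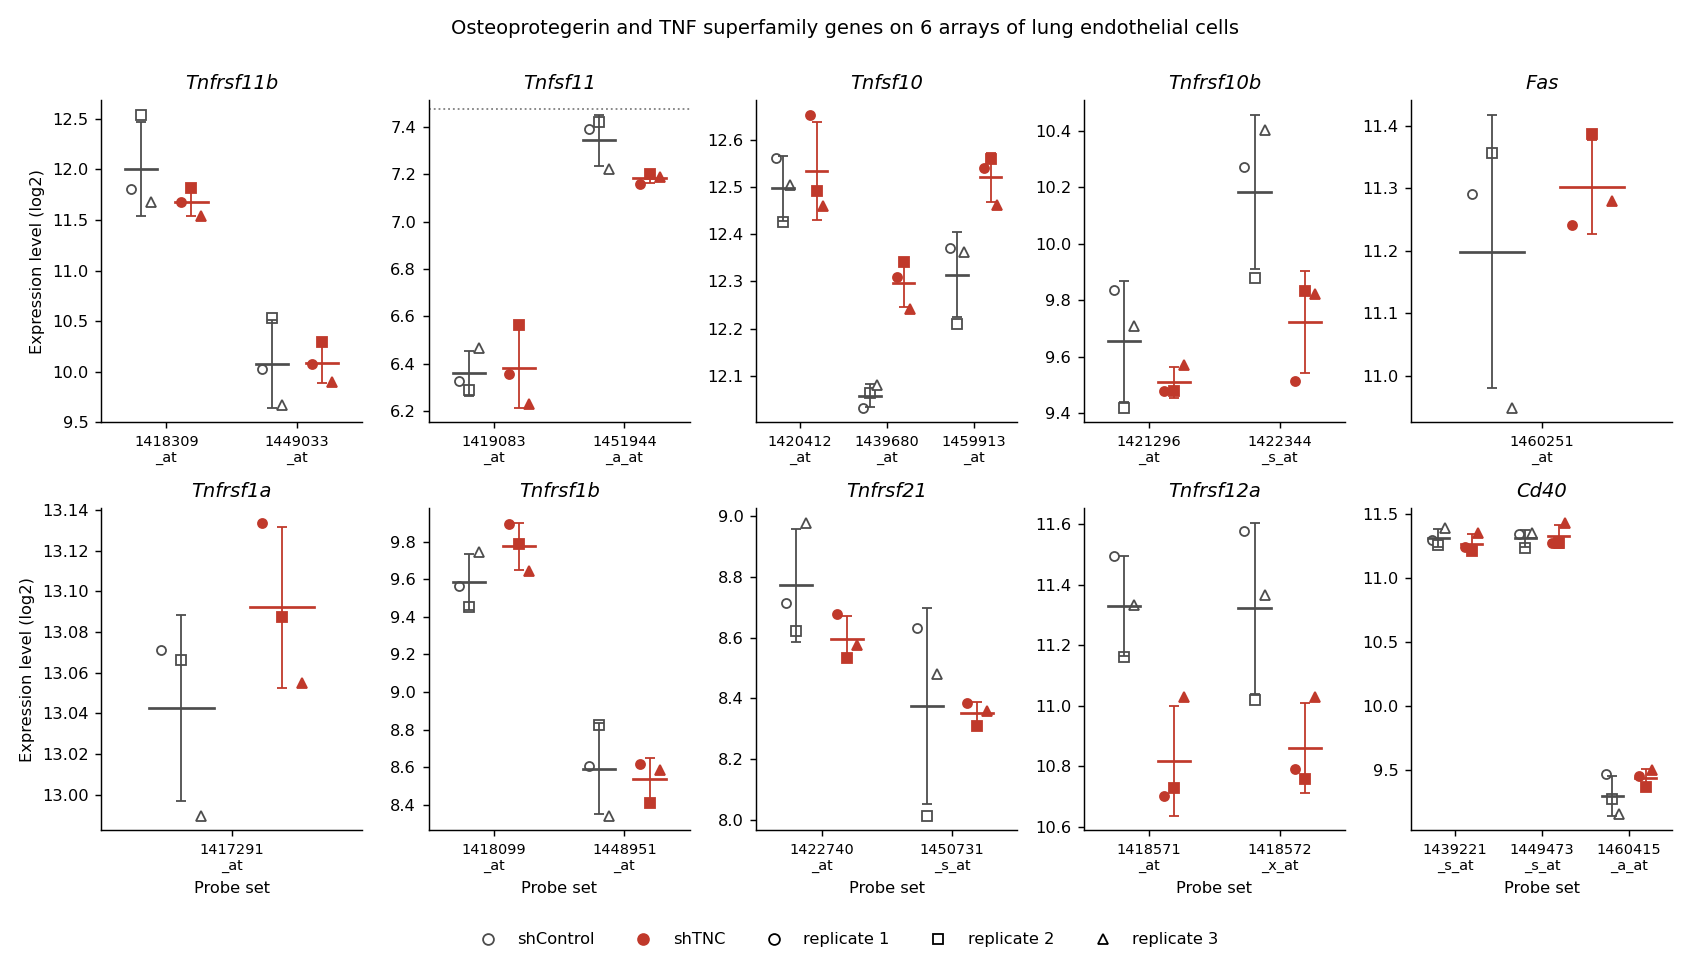
Log2 expression level of every probe set of the 10 genes on each array, with shControl as open grey symbols and shTNC as filled red symbols, the replicate number as the symbol shape, the group mean as a horizontal line and 1 SD as the error bar. The vertical axes differ between panels; the dotted line in the Tnfsf11 panel is the background level of 7.48, and the shTNC arrays lie below all shControl arrays for Tnfrsf12a 1418571_at (10.70 to 11.03 against 11.16 to 11.49).

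RANKL, the osteoprotegerin ligand best known for driving osteoclast formation, gave little signal. Both Tnfsf11 probe sets had means under the background level. Probe set 1451944_a_at measured 7.39, 7.42 and 7.22 in shControl and 7.16, 7.20 and 7.19 in shTNC. All shTNC arrays lay below all shControl arrays, but the nearest values were only 0.021 apart. The difference was -0.16 ± 0.089 (SE; adjusted p = 0.479, limma) and at this level of signal it cannot be read as a difference in Tnfsf11 mRNA. Probe set 1419083_at measured 6.33, 6.29 and 6.47 in shControl and 6.36, 6.56 and 6.23 in shTNC, with overlapping groups and a difference of 0.023 ± 0.11 (SE; adjusted p = 0.949, limma). Tnfsf11 lies on chromosome 14 (GRCm38, chr14:78277446-78308043).

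TRAIL, which triggers apoptosis through death receptors and is the other ligand that osteoprotegerin captures, had 3 probe sets well above background. Probe set 1439680_at of Tnfsf10 measured 12.03, 12.06 and 12.08 in shControl and 12.31, 12.34 and 12.24 in shTNC. The shControl arrays agreed closely, and every shTNC array lay above them. The means were 12.06 ± 0.024 (SD, n = 3) and 12.30 ± 0.051 (SD, n = 3), and shTNC was 18.1% above shControl on the linear scale. The log2 difference was 0.24 ± 0.081 (SE; 95% confidence interval 0.054 to 0.43; adjusted p = 0.300, limma). It stayed between 0.22 and 0.27 when any 1 array was left out.

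Probe set 1459913_at of Tnfsf10 measured 12.37, 12.21 and 12.36 in shControl and 12.54, 12.56 and 12.46 in shTNC, again with every shTNC array above the shControl arrays. The difference was 0.21 ± 0.088 (SE; adjusted p = 0.380, limma), or 15.4% on the linear scale, and it was 0.15 ± 0.086 (SE) without shControl 2. The remaining probe set gave a smaller difference. Probe set 1420412_at measured 12.56, 12.43 and 12.51 in shControl and 12.65, 12.49 and 12.46 in shTNC. These groups overlapped, and the difference was 0.037 ± 0.092 (SE; adjusted p = 0.896, limma). Whether the probe sets of Tnfsf10 differ from each other in this was not tested, and the transcripts that each of them reads were not analysed here.

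The promoter of Tnfsf10 (chr3:27316827-27317126, plus strand, GRCm38.p6) is shown because the gene had the only member probe sets whose shTNC arrays all lay above the shControl arrays. It runs from 250 bases before to 50 bases after the transcript start given by RefSeq, and it was chosen after the values were seen. None of 4 motifs searched on both strands was found in it, so it holds no capitals. The motifs were the GC box (GGGCGG), the TATA box (TATAAA), the AP-1 site (TGANTCA) and an NF-kB site (GGACTTTCC), which occur in 35.7%, 13.6%, 7.81% and 0.344% of the 32851 promoters of the same length. Other forms of these motifs were not searched. Its GC content was 52.3%, and the median of all promoters was 52.7%.
Tnfsf10 promoter: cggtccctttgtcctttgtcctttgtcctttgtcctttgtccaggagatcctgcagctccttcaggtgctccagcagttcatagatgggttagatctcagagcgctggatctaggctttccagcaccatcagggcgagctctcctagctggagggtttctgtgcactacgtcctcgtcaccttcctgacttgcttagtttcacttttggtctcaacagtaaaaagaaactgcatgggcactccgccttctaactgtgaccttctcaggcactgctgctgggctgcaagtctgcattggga

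Tnfrsf10b encodes the death receptor that binds TRAIL in the mouse. Its probe set 1422344_s_at measured 10.27, 9.88 and 10.40 in shControl and 9.51, 9.83 and 9.82 in shTNC. All shTNC arrays lay below the shControl arrays, but shControl 2 was 0.045 above the nearest shTNC array. The means were 10.18 ± 0.27 (SD, n = 3) in shControl and 9.72 ± 0.18 (SD, n = 3) in shTNC, which put shTNC at 0.727 times the shControl level. The log2 difference was -0.46 ± 0.15 (SE; 95% confidence interval -0.81 to -0.11; adjusted p = 0.297, limma), and it ranged from -0.61 to -0.35 when any 1 array was left out. The suffix _s marks probes that can match transcripts of more than 1 gene.

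The second Tnfrsf10b probe set, 1421296_at, measured 9.84, 9.42 and 9.71 in shControl and 9.48, 9.48 and 9.57 in shTNC. The lowest value was that of shControl 2, which lay under all shTNC arrays, so the groups overlapped. The difference was -0.15 ± 0.12 (SE; adjusted p = 0.630, limma). Without shControl 2 it was -0.26 ± 0.092 (SE; unadjusted p = 0.024, adjusted p = 0.400, limma), the largest of the leave-outs. Without shControl 1 it was -0.055 ± 0.12 (SE), the smallest. Tnfrsf10b lies on chromosome 14 (GRCm38, chr14:69767472-69784411), and both of its probe sets had the lower mean in shTNC.

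**Figure D2:**
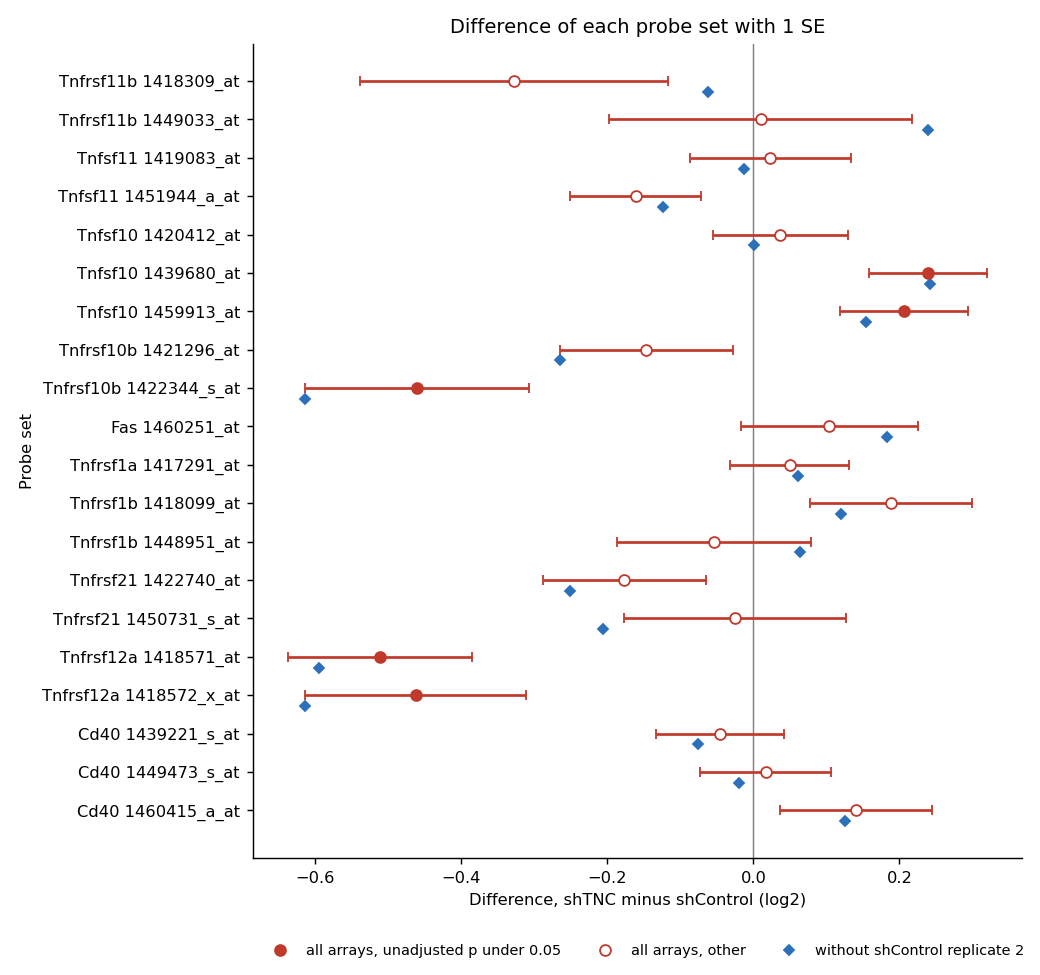
Difference between the group means, shTNC minus shControl, on the log2 scale for each of the 20 member probe sets, as circles with 1 SE; filled circles had an unadjusted p under 0.05 (limma), and blue diamonds give the difference without shControl 2. Both Tnfrsf12a probe sets (-0.51 and -0.46) and Tnfrsf10b 1422344_s_at (-0.46) lie farthest to the left, and leaving out shControl 2 moved Tnfrsf11b 1418309_at from -0.33 to -0.062.

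The other receptors with a death domain showed small differences. Fas, the receptor for Fas ligand, measured 11.29, 11.36 and 10.95 in shControl and 11.24, 11.39 and 11.28 in shTNC, and shControl 3 was the lowest array. The groups overlapped, with a difference of 0.10 ± 0.12 (SE; adjusted p = 0.751, limma). Without shControl 3 the difference was -0.021 ± 0.095 (SE).

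Tnfrsf1a, which encodes the main TNF receptor of most tissues, measured 13.07, 13.07 and 12.99 in shControl and 13.13, 13.09 and 13.05 in shTNC. The groups overlapped and all arrays lay within 0.144 of each other. The difference was 0.050 ± 0.081 (SE; 95% confidence interval -0.14 to 0.24; adjusted p = 0.831, limma).

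Tnfrsf21 encodes death receptor 6. Its probe set 1422740_at measured 8.72, 8.62 and 8.98 in shControl and 8.68, 8.53 and 8.57 in shTNC, with overlapping groups and a difference of -0.18 ± 0.11 (SE; adjusted p = 0.532, limma). Its probe set 1450731_s_at measured 8.63, 8.01 and 8.48 in shControl and 8.38, 8.31 and 8.36 in shTNC. Here the shTNC arrays lay inside the range of the shControl arrays, of which shControl 2 was the lowest, and the difference was -0.025 ± 0.15 (SE; adjusted p = 0.960, limma).

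Of the receptors without a death domain, Tnfrsf12a had the difference with the smallest p among all members. It encodes Fn14, the receptor for TWEAK, a ligand that was not analysed here. Its probe set 1418571_at measured 11.49, 11.16 and 11.33 in shControl and 10.70, 10.73 and 11.03 in shTNC. Every shTNC array lay below every shControl array. The means were 11.33 ± 0.17 (SD, n = 3) and 10.82 ± 0.18 (SD, n = 3), so that shTNC was at 0.702 times the shControl level. The log2 difference was -0.51 ± 0.13 (SE; 95% confidence interval -0.80 to -0.22), with an unadjusted p of 0.0035 and an adjusted p of 0.231 (limma). By p the probe set ranked 687 of 45101, and the difference was between -0.62 and -0.43 without any 1 array.

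The other Tnfrsf12a probe set, 1418572_x_at, measured 11.58, 11.02 and 11.37 in shControl and 10.79, 10.76 and 11.03 in shTNC. The lowest shControl array, shControl 2, lay just under shTNC 3, so the groups touched, and the other arrays were separate. The difference was -0.46 ± 0.15 (SE; 95% confidence interval -0.81 to -0.12; adjusted p = 0.293, limma), and it was -0.33 ± 0.14 (SE) without shControl 1. The suffix _x marks probes that may also bind unrelated transcripts. Both probe sets read 1 gene from the same RNA and are not separate evidence.

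The promoter of Tnfrsf12a is shown as that of the receptor gene with the most separated groups, and it too was chosen after the values were seen. RefSeq places it on the minus strand of chromosome 17 (chr17:23677400-23677699, GRCm38.p6), over the same span around the start as above. Capitals mark 5 GC boxes, written GGGCGG or, on the opposite strand, CCGCCC, of which 1 pair is directly adjacent and none overlap. The TATA box, AP-1 and NF-kB letters above were not found in this window, and its GC content was 59.7%. A match of letters describes the sequence and does not show that a factor binds there.
Tnfrsf12a promoter: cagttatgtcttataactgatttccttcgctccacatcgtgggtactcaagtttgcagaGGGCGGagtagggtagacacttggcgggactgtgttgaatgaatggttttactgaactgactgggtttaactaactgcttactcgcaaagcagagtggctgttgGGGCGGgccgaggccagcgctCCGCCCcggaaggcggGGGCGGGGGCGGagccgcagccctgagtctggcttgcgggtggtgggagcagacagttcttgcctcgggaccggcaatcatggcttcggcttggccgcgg
Promoters of 7 of the 10 members were in the RefSeq table. Fas held 2 GC boxes and 1 AP-1 site, Tnfrsf1b held 2 GC boxes, Tnfrsf21 held 1 GC box, Tnfsf11 held 1 TATA box, and Tnfrsf1a held none of the motifs.

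**Figure D3:**
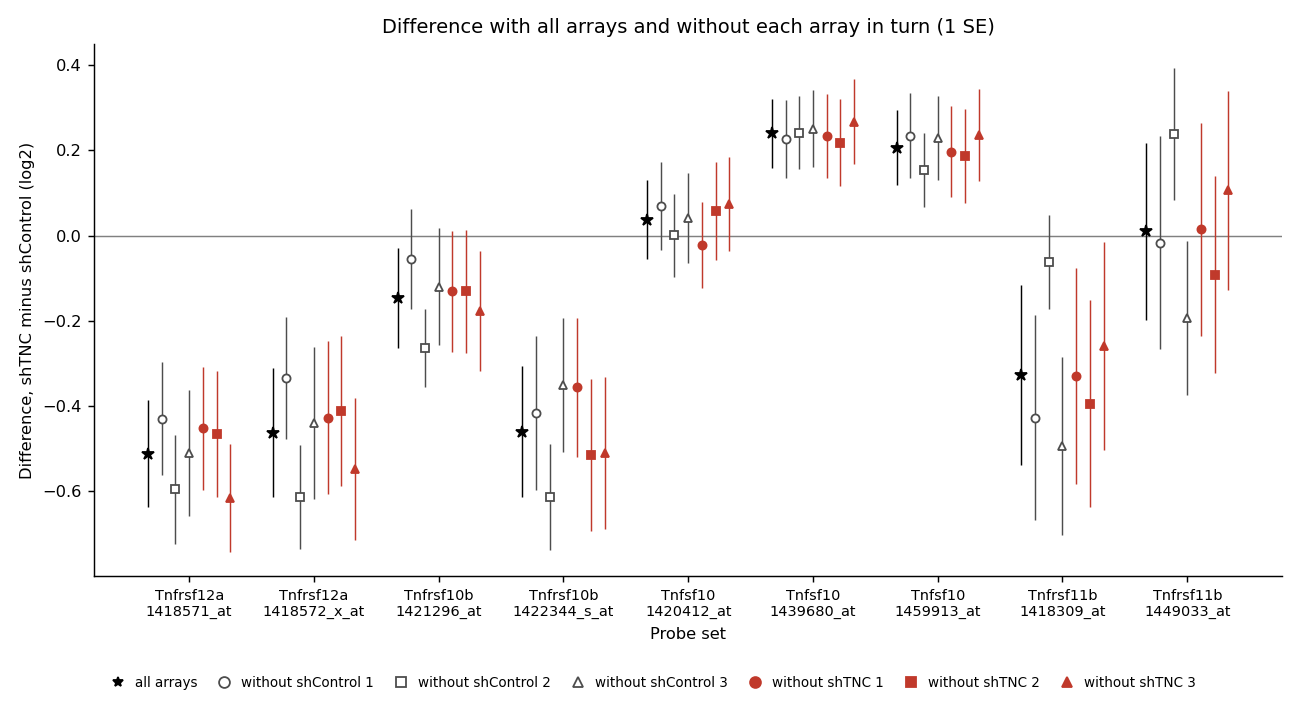
Log2 difference, shTNC minus shControl, for the 9 probe sets of Tnfrsf12a, Tnfrsf10b, Tnfsf10 and Tnfrsf11b with all arrays (star) and without each array in turn, with 1 SE. Tnfrsf12a 1418571_at stayed between -0.62 and -0.43 and Tnfsf10 1439680_at between 0.22 and 0.27, whereas Tnfrsf11b 1449033_at ranged from -0.19 to 0.24.

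Tnfrsf1b encodes the TNF receptor that binds TRAF proteins directly. Its probe set 1418099_at measured 9.56, 9.45 and 9.75 in shControl and 9.89, 9.79 and 9.64 in shTNC, with overlapping groups and a difference of 0.19 ± 0.11 (SE; adjusted p = 0.503, limma). Its probe set 1448951_at measured 8.61, 8.82 and 8.34 in shControl and 8.62, 8.41 and 8.59 in shTNC. It differed by -0.053 ± 0.13 (SE; adjusted p = 0.896, limma), so the probe sets of this gene had differences of opposite sign, neither of which passed the test.

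Cd40, a receptor that ECs share with antigen-presenting cells, had 3 probe sets with narrow ranges. Probe set 1439221_s_at lay between 11.25 and 11.39 in shControl and between 11.21 and 11.35 in shTNC, and 1449473_s_at between 11.23 and 11.35 and between 11.27 and 11.43. Their differences were -0.046 ± 0.088 (SE; adjusted p = 0.858, limma) and 0.017 ± 0.090 (SE; adjusted p = 0.953, limma). Probe set 1460415_a_at measured 9.47, 9.27 and 9.16 in shControl and 9.45, 9.36 and 9.50 in shTNC, with a difference of 0.14 ± 0.10 (SE; adjusted p = 0.597, limma). The groups of all 3 overlapped, and the 95% confidence intervals of the first pair reached from -0.25 to 0.16 and from -0.19 to 0.22.

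By role, the 15 probe sets of the 8 receptors had a median difference of -0.046, with 9 lower and 6 higher. The 5 probe sets of the 2 ligands had a median of 0.037, with 1 lower and 4 higher. Those of Tnfsf11, 1 lower and 1 higher, were near background, and the other 3 were all of Tnfsf10. Of the osteoprotegerin axis, all 3 Tnfsf10 probe sets had higher means in shTNC, both Tnfrsf10b probe sets had lower means, and Tnfrsf11b had 1 on either side of 0. Probe sets of 1 gene read the same RNA and are not separate evidence. The Tnfsf10 difference of 0.037 in 1420412_at was -0.022 without shTNC 1. Tnfrsf22, a TRAIL receptor outside the 10 genes, is described below. None of these differences passed the adjusted test.

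The rest of the superfamily and its signaling genes were read from 5 lists with 81 of 91 genes and 173 probe sets. None passed an adjusted p of 0.05 (limma), the smallest being 0.197, and an unadjusted p under 0.05 was reached by 12 probe sets that were lower and 13 that were higher, near the shares of 6.3% and 6.66% over the whole array. The median over the 173 was -0.036. For the other receptors, 3 of 29 probe sets were lower and 3 higher at that level, with a median of -0.079. The smallest p was that of Tnfrsf22, a decoy receptor for TRAIL in the mouse, whose probe set 1422039_at averaged 7.26 in shControl against 7.73 in shTNC (difference 0.47 ± 0.095, SE). The mean of this probe set was barely above background, and the other Tnfrsf22 probe sets differed by -0.031 ± 0.26 (SE) and -0.11 ± 0.084 (SE). Eda2r, a receptor for ectodysplasin, differed by -0.44 ± 0.099 (SE). Tnfrsf18, which encodes GITR, differed by 0.35 ± 0.11 (SE), and Tnfrsf19 by 0.51 ± 0.14 (SE) in 1 of its 3 probe sets. The remaining Tnfrsf19 probe sets differed by 0.067 ± 0.098 (SE) and 0.068 ± 0.11 (SE). Tnfrsf11a, the RANKL receptor, differed by -0.023 ± 0.14 (SE) in the probe set above background.

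The other ligands lay mostly near background in these cells. Only 5 of their 20 probe sets had means above background, and the median was -0.075. At that unadjusted level 1 was lower and 0 were higher, against 6.3% and 6.66% of all probe sets. Tnf itself averaged 7.64 in shControl and 7.49 in shTNC, with a difference of -0.14 ± 0.13 (SE). Adaptors and feedback inhibitors, such as the TRAF proteins, had 2 of 45 probe sets lower and 0 higher, against the same shares, with a median of -0.030. Both lower probe sets were of Traf6, an adaptor of CD40 and Toll-like receptors. Traf6 differed by -0.31 ± 0.10 (SE) in probe set 1421377_at and by -0.42 in the one near background. Its remaining probe sets, all above background, differed by -0.16, -0.11 and 0.14.

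Endothelial genes known to respond to TNF went in both directions, with 4 of 33 probe sets lower and 6 higher at that level, against 6.3% and 6.66% of all probe sets, and a median of 0.035. Vcam1, an adhesion molecule for leukocytes, was higher at this level in all 3 of its probe sets, by 0.31 ± 0.096, 0.39 ± 0.11 and 0.27 ± 0.092 (SE). The chemokine gene Cxcl1 was higher by 0.76 ± 0.21 (SE) in 1419209_at and by 0.30 ± 0.12 (SE) in 1441855_x_at, and by 0.072 ± 0.14 (SE) in the remaining probe set. Selp, which encodes P-selectin, differed by -0.32 ± 0.11 (SE) in 1420558_at and by -0.28 ± 0.090 (SE) in 1449906_at, and by -0.16 ± 0.12 (SE) in the remaining probe set. Nfkb2 differed by -0.27 ± 0.082 (SE) in 1429128_x_at and by -0.19 ± 0.094 (SE) in its other probe set. Sele and Tnfaip2 were the remaining genes at this level. Sele, which encodes E-selectin, differed by -0.55 ± 0.17 (SE), the lowest value of the list. Tnfaip2 differed by 0.28 ± 0.11 (SE) in 1438855_x_at and by 0.021 ± 0.17 and 0.040 ± 0.17 (SE) in its other probe sets. The probe sets of these genes with an unadjusted p under 0.05 had adjusted p between 0.255 and 0.356 (limma), and none passed.

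**Figure D4:**
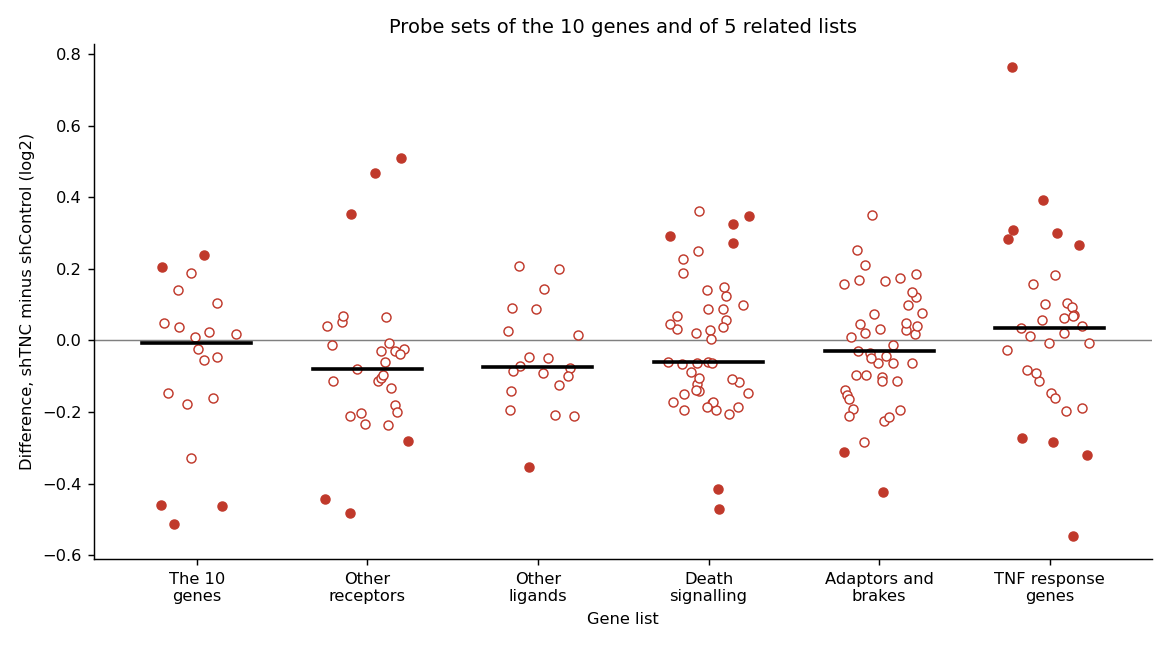
Log2 difference, shTNC minus shControl, of each probe set of the 10 genes and of 5 lists of related genes, with filled points for an unadjusted p under 0.05 (limma) and a bar at the list median. All medians lie between -0.079 and 0.035, and filled points occur on both sides of 0 for 4 of the 6 lists.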

How the data were processed

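Total RNA (2 ng per sample) of lung ECs, sorted as CD31+ cells after exclusion of CD45, CD11b, EpCAM, CD140a, CD140b and GFP, was measured on Affymetrix mouse arrays. The authors deposited log2 levels for each probe set, already normalized between arrays (their methods name RMA), so that differences in total RNA are removed. Most values were tied, with 5773 to 6883 distinct values among the 45101 on an array, and how the probes were summarised was not settled here. Raw files were not used here.

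Symbols came from the platform annotation, with 34958 probe sets of 1 symbol, 932 of several and 9211 of none, and 64 of the probe sets were controls. The test was limma's moderated two-sided test (version 3.58.1, R 4.3.3; lmFit and eBayes, no filter), adjusted by Benjamini-Hochberg over 45101 probe sets. Differences are shTNC minus shControl with limma's SE and 95% confidence interval. Levels of different probe sets are not comparable. Near background means under 7.48, a level that 67.2% of probe sets exceeded. The script was tested on simulated data.

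Members and lists were chosen with earlier results of these data known. All member probe sets are named, and from each other list at most 4 genes above background with an unadjusted p under 0.05, by smallest p. Tnf, Tnfrsf11a, Sele and Tnfaip2 were added after their values were seen. Of the 91 related genes, 10 were not analysed here. Alternatives were quantile normalization, median centring, a background filter, array weights, robust eBayes with an intensity trend, a replicate block, leaving out each array and the mean of a gene's probe sets. Gene positions are RefSeq's for GRCm38, since the build behind the array was not given in the sources used here.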

Additional observations from a re-analysis of the deposited data

How the results depend on the processing

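No member probe set passed an adjusted p of 0.05 (limma) under any of the alternatives. Of 248 member values under an alternative, 235 kept their direction and 13 reversed, all of the latter when an array was left out. The reversals were in Tnfrsf11b 1449033_at (-0.19 to 0.24 without any 1 array), Fas (-0.021 to 0.18), Tnfrsf21 1450731_s_at (-0.21 to 0.10), Tnfrsf1b 1448951_at (-0.18 to 0.064), Cd40 1449473_s_at (-0.035 to 0.044), Tnfsf11 1419083_at (-0.067 to 0.10) and Tnfsf10 1420412_at (-0.022 to 0.075). The other 13 probe sets had the same direction in every setting compared. The mean of a gene's probe sets was compared only with the probe set of the highest level. The gene means of Tnfrsf11b (-0.16), Tnfrsf1b (0.067), Tnfsf11 (-0.069) and Cd40 (0.037) were opposite in sign to another probe set of the gene. The count of members lower at an unadjusted p under 0.05 was between 1 and 4 without any 1 array, and the count of higher members between 0 and 2. Over all probe sets the shares in these settings ranged from 4.18% to 7.99% lower and from 4.86% to 8.01% higher. The count of higher members was 1 with array weights and 1 with the replicate block, against 6.75% and 6.67% of all probe sets. The count of lower members was 3 in both settings. With the mean of each gene's probe sets, 0 of the 10 genes were higher and 2 lower, against 5.47% and 7.49% of all genes. The count of the related genes higher at that level was 4 of 81 with gene means. Such counts of genes are not comparable with the counts of probe sets. Over all probe sets, 9 passed the adjusted threshold with an intensity trend and robust eBayes, 2 without shControl 1 and 4 without shControl 3, and 1 of 18194 genes passed with gene means.

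Whether equal replicate numbers pair the samples was not settled. Deviations from the group means correlated at -0.11, 0.038 and 0.14 between arrays of equal number, and at -0.14 to 0.11 between the others. With 3 arrays per group such values cannot decide it. With the replicate block no probe set passed the adjusted threshold. Tnfrsf11b 1418309_at then differed by -0.33 ± 0.14 (SE), with an unadjusted p of 0.057 and an adjusted p of 0.407 (limma). Its probe set 1449033_at differed by 0.0099 ± 0.12 (SE).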

Other observations

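The genes of death signaling downstream of these receptors did not share a direction. Among 46 probe sets for 15 genes, an unadjusted p under 0.05 (limma) was reached by 2 that were lower and 4 that were higher, against 6.3% and 6.66% of all probe sets, none passed an adjusted p of 0.05, and the median was -0.060. The genes named here are the 4 above background with the smallest p in this list and are given as values. Bid, which links caspase activation by death receptors to the mitochondria, had differences in both of its probe sets above background, of -0.47 ± 0.18 (SE) in 1417045_at and -0.41 ± 0.13 (SE) in 1448560_at. Its values in 1417045_at were 10.43, 9.77 and 9.75 in shControl and 9.54, 9.56 and 9.45 in shTNC, so shControl 1 stood above the rest. Diablo, an antagonist of the caspase inhibitor XIAP, differed by 0.32 ± 0.10 (SE) in 1417683_at and by 0.069 ± 0.13 (SE) in its other probe set. Xiap itself differed by 0.29 ± 0.095 (SE) in 1437533_at, with its other probe sets between -0.14 and 0.36. Mcl1, a survival factor of the BCL-2 family, differed by 0.27 ± 0.088 (SE) in 1448503_at, whereas its other probe sets lay between -0.11 and 0.19.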
